A study of Mus musculus with 4 samples.

Results

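Cholesterol synthesis was followed in mouse red cell precursors through 7 genes, Hmgcs1, Idi1, Fdps, Fdft1, Sqle, Lss and Dhcr7, taken by symbol from the deposited table of read counts. A row was found for 6 of these 7 genes among 35927 gene rows with counts, and Hmgcs1 is not analysed here. The cells were erythroid progenitors of fetal liver at embryonic day 13.5, from C57BL/6 embryos, sorted by flow cytometry as CD71+ and TER119-, with propidium iodide to gate out dead cells. CD71 is the transferrin receptor, and TER119 marks more mature cells of the red lineage. The 2 mutant libraries came from Rcor1-/- embryos, which lack both working copies of the gene for the CoREST scaffold protein, a partner of histone demethylases and deacetylases. The 2 control libraries came from a mix of Rcor1+/+ and Rcor1+/- embryos, whose proportions the sources used here do not state. Each library pooled RNA of several fetal livers, so the spread between libraries is that of pools and not of single embryos.

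Cholesterol is built from acetyl-CoA in a long chain of reactions. The early steps make mevalonate and then isoprenoid units, which also feed protein prenylation, dolichol and ubiquinone. The later steps join these units into squalene, close it into the ring of lanosterol and trim that sterol to cholesterol. When membrane sterol is low, the escort protein Scap carries the transcription factor Srebf2 to the Golgi, where it is cut, and its active part switches on genes of the whole chain. Hmgcs1 makes HMG-CoA and Idi1 isomerises isopentenyl diphosphate. Fdps condenses isoprenoid units into farnesyl diphosphate, the branch point of the pathway, and Fdft1 joins a pair of these into squalene. Sqle oxidises squalene, Lss closes the sterol ring and Dhcr7 reduces 7-dehydrocholesterol to cholesterol.

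Promoters are shown for Idi1, Lss and Dhcr7, the measured members that have an entry in the RefSeq promoter table (GRCm38.p6), because the members are textbook targets of one regulator and the count data compare them as a group. Hmgcs1 also had an entry, and Sqle, Fdps and Fdft1 had none. Each runs 5′ to 3′ on the strand of its gene, from 250 bases before to 50 bases after the annotated start. Capitals mark the letters CCAAT, or ATTGG where CCAAT lies on the other strand. CCAAT is the core bound by NF-Y, a factor known to act together with the sterol regulatory element binding proteins. The Idi1 promoter lies at chr13:8885356-8885655 on the + strand, that of Lss at chr10:76531355-76531654 on the + strand, and that of Dhcr7, the last of its 3 listed starts and the only one with CCAAT, at chr7:143829964-143830263 on the + strand.
Idi1: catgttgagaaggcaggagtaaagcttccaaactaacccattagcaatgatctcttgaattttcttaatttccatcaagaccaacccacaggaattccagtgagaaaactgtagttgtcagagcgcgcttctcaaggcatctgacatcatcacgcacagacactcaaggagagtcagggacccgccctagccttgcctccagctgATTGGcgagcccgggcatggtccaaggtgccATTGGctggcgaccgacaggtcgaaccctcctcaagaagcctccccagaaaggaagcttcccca
Lss: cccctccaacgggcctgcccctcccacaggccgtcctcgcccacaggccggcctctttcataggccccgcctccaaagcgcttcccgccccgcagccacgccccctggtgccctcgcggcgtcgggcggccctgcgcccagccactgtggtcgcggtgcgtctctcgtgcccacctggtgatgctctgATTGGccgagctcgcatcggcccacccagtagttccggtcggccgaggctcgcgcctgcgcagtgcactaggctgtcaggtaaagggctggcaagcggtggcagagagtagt
Dhcr7: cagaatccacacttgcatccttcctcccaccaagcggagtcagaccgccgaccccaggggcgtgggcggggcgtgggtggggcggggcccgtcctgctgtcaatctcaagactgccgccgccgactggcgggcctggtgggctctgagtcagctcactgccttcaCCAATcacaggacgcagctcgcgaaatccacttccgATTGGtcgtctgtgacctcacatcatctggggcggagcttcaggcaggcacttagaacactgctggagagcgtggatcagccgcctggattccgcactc

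CCAAT was present on either strand in at least 1 promoter of all 4 members with an entry, with 2 matches in Idi1, 1 in Lss, 2 in the Dhcr7 promoter shown and 4 in Hmgcs1. Among the other enzymes of sterol synthesis, 11 of 12 with an entry held it. The same letters were found in 37.4% of all 32851 promoters of this length and for 41.1% of 27025 genes. A sterol regulatory element was searched as TCACNCCAC on both strands. It matched in Hmgcs1, as TCACCCCAC, with no overlap with a CCAAT match there. It matched in none of the other 3 members and 0 of 12 other enzymes, beside 1.24% of all promoters and 1.44% of genes. A match describes the letters in this window and does not show a site in use. Only this strict pattern was searched, so a missing match does not show that the element is absent.

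Gene expression was measured by mRNA sequencing. Control libraries held 26892375 and 22817080 counts, and mutant libraries 25186819 and 15053229, each summed over all genes. A level is given here as CPM, a count scaled to a common library size after TMM scaling, which corrects for differences in library composition. A change is given as log2 of mutant over control, fitted by the quasi-likelihood method of edgeR, with its standard error (SE), and it was called where the Benjamini-Hochberg adjusted p over 13140 tested genes was under 0.05. Of all tested genes 57.5% were called, 28.3% higher and 29.2% lower in the mutant, so being called is the usual state of a gene in this comparison. The median log2 fold change of all tested genes was 0.01 and the median of its absolute value 0.32. Rcor1 itself had 160 and 174 CPM in the controls and 77.8 and 78.8 CPM in the mutants (adjusted p = 4.57e-11), so transcript counts remained in the mutant; the sources used here do not state which part of the gene was deleted.

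The erythroid identity of the sorted cells was visible in all 4 libraries, with Gata1, a master regulator of red cell genes, between 364 and 538 CPM and Tfrc, the gene for CD71, between 855 and 1360 CPM. All 7 erythroid markers were lower in the mutant, with a median log2 fold change of -0.55. Summed levels of markers of other fetal liver cells were higher, though not every marker rose. Hepatoblast markers summed to 1010 and 996 CPM in the controls and 1362 and 1366 CPM in the mutants, with 8 of 11 tested called higher and Serpina1a too scarce to test. Macrophage markers summed to between 17.9 and 18.1 CPM in controls and between 25.1 and 25.4 CPM in mutants (2 of 8 higher), endothelial markers to between 11.6 and 12.4 and between 30.1 and 30.2 CPM (4 of 7), mesenchymal markers to between 6.92 and 7.03 and between 21.8 and 23.6 CPM (6 of 7), and megakaryocyte markers to between 62.4 and 66.6 and between 238 and 250 CPM (5 of 6). Beside these counts, 28.3% of all tested genes were called higher and 29.2% lower. The macrophage marker C1qa (-0.08) and the endothelial marker Lyve1 (-0.33) had negative log2 fold changes, and neither passed. The endothelial markers Cdh5 (0.09) and Stab2 (0.15) did not pass either. Among macrophage markers Csf1r rose most, from 2.77 and 3.67 to 8.04 and 7.44 CPM. Serpina1a and Des were at 0 in the second control library and no other listed marker was at 0 in any library. The part of these markers in the results below was not tested, and in sorted bulk cells fewer cells of a type and less RNA per cell cannot be told apart.

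Among the members, the changes that passed the test were small falls. Squalene epoxidase Sqle, the ring-closing enzyme Lss and the late enzyme Dhcr7 were lower in the mutant by 1.11-fold, 1.23-fold and 1.13-fold. The isoprenoid enzymes Idi1 and Fdps and squalene synthase Fdft1 did not pass the test, and their intervals include changes in both directions. Of the 6 measured members, 0 were called higher and 3 lower, which is 50.0% called beside 57.5% of all genes. Without the first control library, or without the second mutant library, 1 member was called lower. The members' median log2 fold change was -0.13 and the median absolute value 0.16, beside 0.32 for all genes, and 4 of 6 members were under 0.25 in absolute value, beside 40.9% of all genes. Control and mutant libraries did not overlap for 5 of 6 members, beside 77.9% of all genes. Since library totals alone as the scaling left none of the 3 falls called, these falls are tied to the scaling, as described below.

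Lss (ENSMUSG00000033105), lanosterol synthase, had a fall that held in 12 of 13 alternative settings. Its libraries held 1598 and 1324 counts in the controls and 1331 and 785 in the mutants, or 62.4 and 60.7 against 50.3 and 49.9 CPM. Both mutant libraries lay below both controls, and the gap was wider than the spread within either group (61.6 ± 1.25 and 50.1 ± 0.244 CPM, SD, n = 2). The log2 fold change was -0.30 ± 0.07 (SE; 95% interval -0.44 to -0.15; adjusted p = 0.00131), and 23.2% of tested genes had a lower value. Of the Lss transcript, 5.35% of 36-base words also occur in the antisense gene 4930483K19Rik, and the sources used here do not state whether counting used strand.

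Dhcr7 (ENSMUSG00000058454), the last enzyme of one branch to cholesterol, had 1405 and 1220 counts in the controls and 1338 and 747 in the mutants. These were 54.9 and 55.9 CPM against 50.5 and 47.5 CPM, with no overlap of the groups. The means were 55.4 ± 0.709 and 49.0 ± 2.14 CPM (SD, n = 2), and the log2 fold change was -0.17 ± 0.07 (SE; interval -0.32 to -0.02; adjusted p = 0.0450). This call sat at the edge of the threshold and was lost when any single library was left out, with adjusted p between 0.0630 and 0.226.

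Sqle (ENSMUSG00000022351), squalene epoxidase, a rate-limiting step after squalene, was the most abundant member per length. It had 3352 and 2734 counts in the controls and 3110 and 1771 in the mutants, or 131 and 125 against 117 and 113 CPM. The groups did not overlap, and the means were 128 ± 4.03 and 115 ± 3.41 CPM (SD, n = 2). The log2 fold change was -0.15 ± 0.05 (SE; interval -0.27 to -0.04; adjusted p = 0.0176). Without the first control library the adjusted p was 0.0874, and without the second mutant library it was 0.167.

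Idi1 (ENSMUSG00000058258) had few counts, 149 and 125 in the controls and 150 and 78 in the mutants. Its levels were 5.82 and 5.73 CPM against 5.66 and 4.96 CPM, with the mutants just below the controls. The log2 fold change was -0.11 ± 0.15 (SE; interval -0.42 to 0.21; adjusted p = 0.571). Without the first mutant library it was -0.22, and without the second mutant library -0.02. At this depth neither a fall of the size seen for Lss nor a small rise could be told from no change.

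Fdft1 (ENSMUSG00000021273) was the member whose groups overlapped. It had 144 and 155 counts in the controls and 178 and 104 in the mutants, or 5.63 and 7.10 against 6.72 and 6.61 CPM. Both mutant libraries lay between the controls, whose log2 difference of 0.33 was the widest replicate gap among the members and exceeded the median of 0.10 over all tested genes. The log2 fold change was 0.08 ± 0.15 (SE; interval -0.24 to 0.39; adjusted p = 0.688), and without the first control library it was -0.10.

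Fdps (ENSMUSG00000059743), farnesyl diphosphate synthase, was the scarcest member with 36 and 29 counts in the controls and 47 and 27 in the mutants. Its levels were 1.41 and 1.33 CPM against 1.77 and 1.72 CPM. Both mutant libraries were above both controls, yet counts this low left the log2 fold change at 0.35 ± 0.26 (SE; interval -0.19 to 0.89; adjusted p = 0.253). It was the largest estimate among the members and the least precise.

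**Figure D1:**
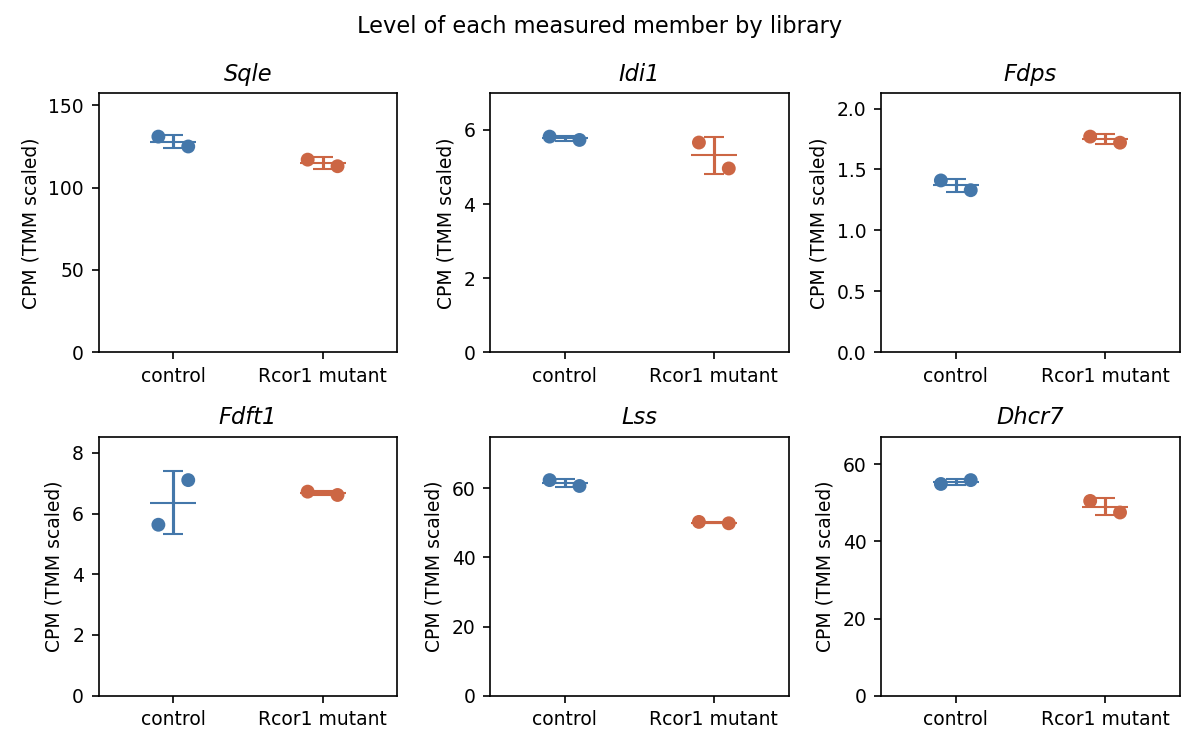
Level of each measured member in TMM-scaled CPM (each axis starts at 0), with 1 point per library and the mean ± SD of 2 libraries per group as bars. Lss, Dhcr7, Sqle, Idi1 and Fdps show no overlap of control and mutant libraries, while both Fdft1 mutant libraries lie between the controls.

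Per kilobase of the longest coding transcript, control levels ran in the order Sqle (46.4 CPM per kb), Dhcr7 (19.7), Lss (13.2), Idi1 (1.91), Fdft1 (1.72) and Fdps (0.991). The control ranges of Sqle, Dhcr7, Lss and Idi1 did not overlap those of their neighbours in that order, with 1 exception. The range of Fdft1, at 1.52 and 1.92 CPM per kb, overlapped that of Idi1, at 1.92 and 1.89. In the mutants the order was Sqle (41.7), Dhcr7 (17.4), Lss (10.7), Fdft1 (1.80), Idi1 (1.75) and Fdps (1.27), in which Fdft1 and Idi1 again overlapped.

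The 3 low members were also those with the most sequence in common with other genes. In GENCODE M21 transcripts, 89.3% of the 36-base words of Fdps also occur in another gene, 78.5% in the gene model Gm43738 alone, and 7 pseudogenes share words with it. For Fdft1 the share was 34.9%, of which 20.2% is with a transcript of Ctsb, and for Idi1 it was 31.6%, with 21.7% in the processed pseudogene Gm13502. Sqle and Dhcr7 shared 0 such words. The lowest of the other enzymes, Sc5d (2.95 CPM per kb in controls) and Hsd17b7 (3.25), had shares of only 1.91% and 0.0218%. Genomic position was not checked, so gene models that overlap each other in the genome also count as sharing words. The sources used here do not state how reads that fit several genes were counted, so the levels of Idi1, Fdft1 and Fdps are uncertain. The part of shared sequence in their low counts was not tested.

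**Figure D2:**
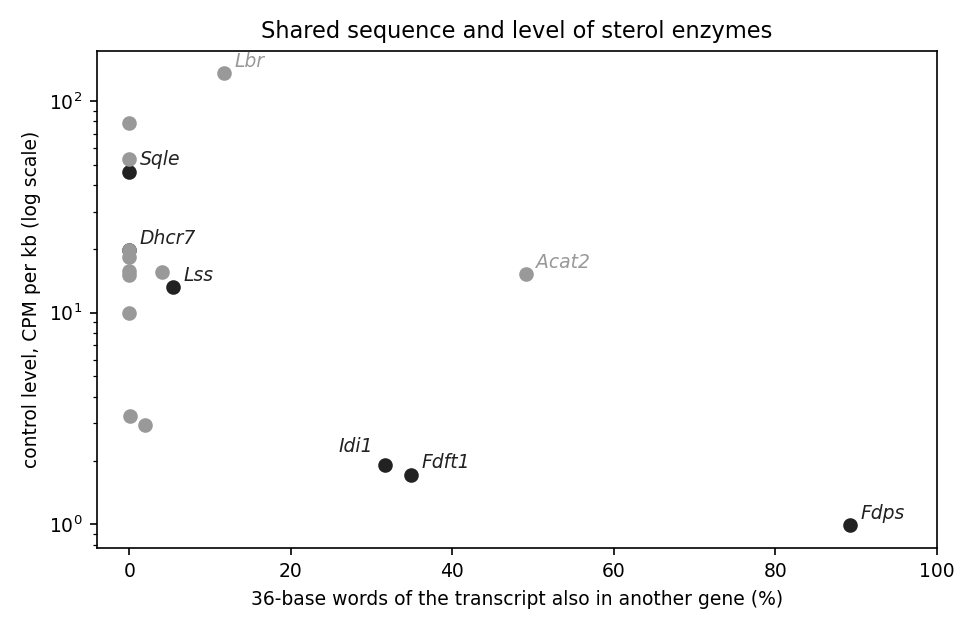
Control level in CPM per kb (log axis) against the percent of 36-base words of the transcript that also occur in another gene, with members in black and other sterol enzymes in grey, for 18 enzymes in all. Idi1 (1.91 CPM per kb), Fdft1 (1.72) and Fdps (0.991) combine low levels with shares of 31.6%, 34.9% and 89.3%, while Acat2 has a share of 49.1% at 15.2 CPM per kb.

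Summed over the 6 members, the share of all counts was 0.0249% (Wilson 95% interval 0.0243 to 0.0255) and 0.0245% (0.0239 to 0.0251) in the controls, against 0.0244% (0.0238 to 0.0251) and 0.0233% (0.0226 to 0.0241) in the mutants. These intervals cover counting error only. Without TMM scaling the first mutant library was within the intervals of both controls and the second was lower. With it, the summed level was 261 and 256 CPM in the controls against 232 and 223 CPM in the mutants. With 2 libraries a group the smallest p of an exact permutation test is 0.333, so no test is given for the sums.

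The scaling set the size of each change. With library totals alone, the median log2 fold change of all tested genes moved from 0.01 to 0.15 and the members moved with it, to -0.16 for Lss (adjusted p = 0.0548), -0.04 for Dhcr7, -0.02 for Sqle, 0.03 for Idi1, 0.21 for Fdft1 and 0.49 for Fdps. A change of scaling shifts all genes by nearly the same amount. Values relative to the median of all genes are therefore nearly the same by construction under TMM, RLE, upper quartile and library-total scaling. Their sameness is no separate support for the falls. These relative values were -0.31 for Lss, -0.18 for Dhcr7, -0.16 for Sqle, -0.11 for Idi1, 0.07 for Fdft1 and 0.34 for Fdps. In the authors' deposited table the log2 fold changes were -0.16 for Lss (false discovery rate 0.110), -0.04 for Dhcr7, -0.02 for Sqle, 0.04 for Idi1, 0.22 for Fdft1 and 0.49 for Fdps. The false discovery rates in the authors' deposited table were above 0.05 for all 6 members. Over 13064 genes in both tables, the authors' deposited table gave log2 fold changes higher than the TMM fit by a median of 0.14.

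**Figure D3:**
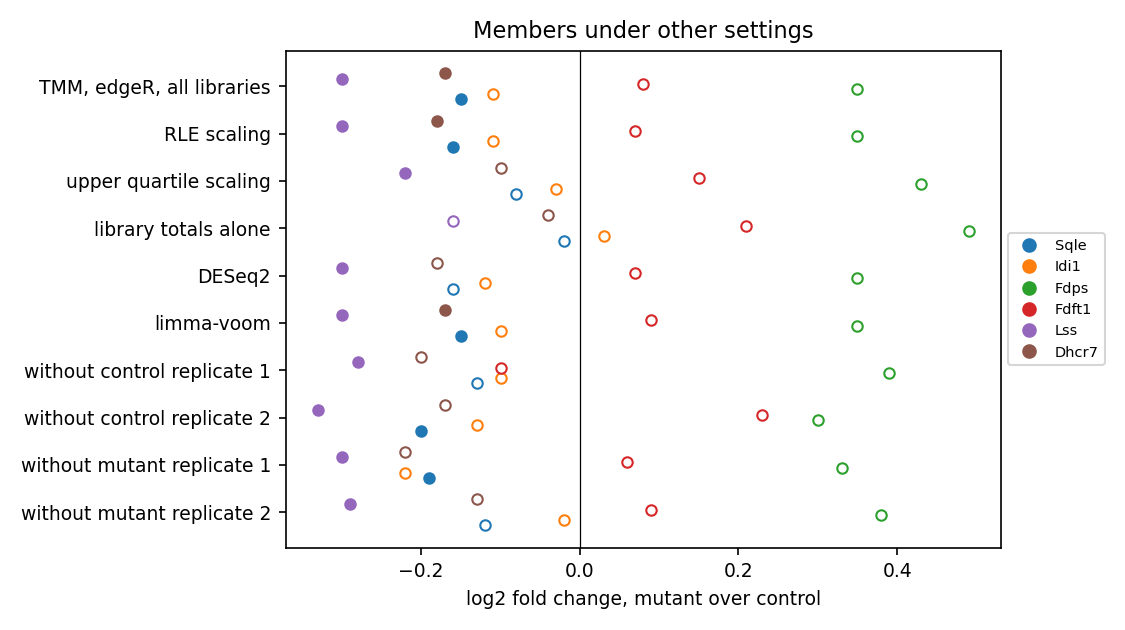
Log2 fold change of mutant over control for each member under the edgeR fit with TMM scaling and 9 of the 13 alternatives, with filled points where the adjusted p was under 0.05. Lss was open only with library totals alone (-0.16), Dhcr7 and Sqle were open under upper quartile scaling, library totals, DESeq2 and some or all fits without 1 library, and Idi1, Fdft1 and Fdps were open throughout.

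Around the members, the rest of the synthesis chain showed small changes in both directions. Of the 14 other enzymes 3 rose, 2 fell and 9 did not pass, with a median log2 fold change of 0.06. That is 35.7% called, beside 57.5% of all genes. With library totals alone 8 of these 14 enzymes were called higher. Sc4mol (Msmo1), which oxidises the methyl groups removed after ring closure, rose from 34.2 and 29.9 CPM to 46.4 and 46.1 CPM (0.53 ± 0.08, SE; adjusted p = 3.45e-05). Hsd17b7, a ketoreductase of the same demethylation, rose from 14.7 and 15.3 to 19.0 and 19.6 CPM (0.37 ± 0.09; adjusted p = 0.00295). Both genes had separate groups, with the mutants above the controls.

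Among the enzymes that fell, Acat2, a cytosolic acetyl-CoA acetyltransferase that opens the chain, fell from 34.6 and 34.0 to 25.0 and 27.5 CPM (-0.39 ± 0.08, SE; adjusted p = 6.31e-04), but shares 49.1% of its 36-base words with Acat3 and is uncertain. Over all 20 measured enzymes, members included, 3 rose, 5 fell and 12 did not pass, which is 40.0% called beside 57.5% of all genes. Their median log2 fold change was 0.03, and 19 of 20 were under 0.5 in absolute value, beside 67.9% of all genes.

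**Figure D4:**
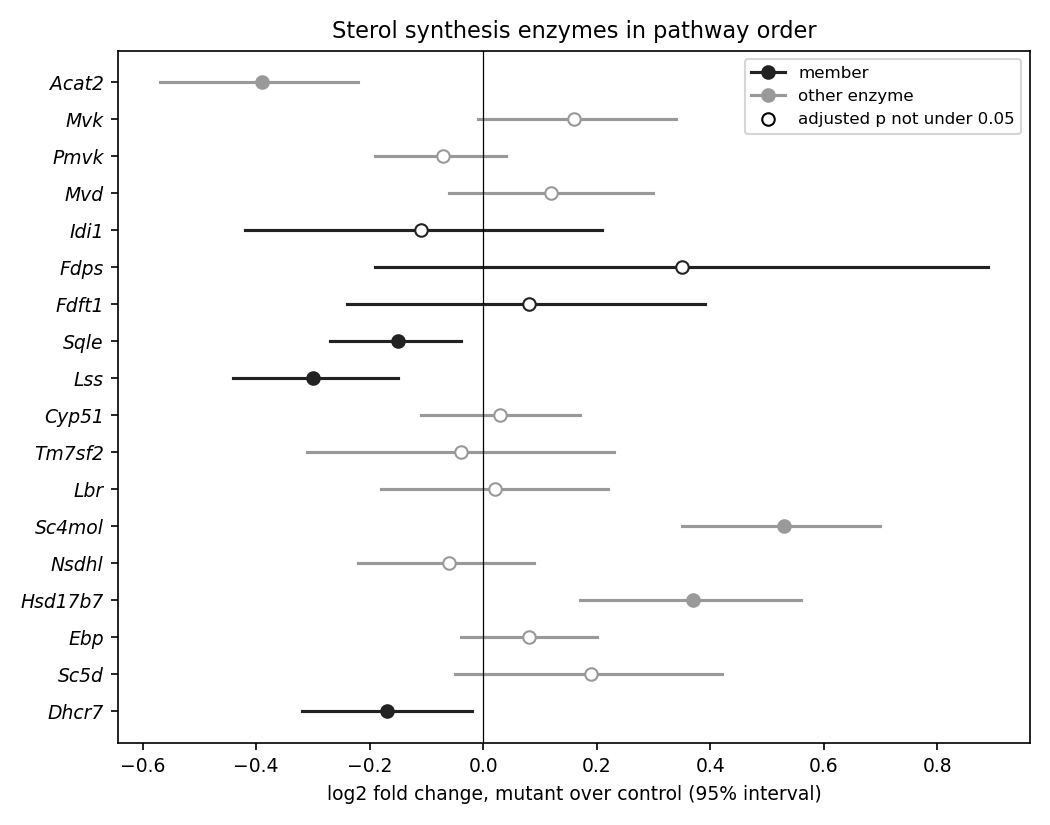
Log2 fold change of mutant over control with its 95% interval for 18 sterol synthesis enzymes, from early steps at the top to late steps at the bottom, with members in black, other enzymes in grey and open points where the adjusted p was not under 0.05. Calls in both directions are spread along the chain, from Sc4mol at 0.53 to Acat2 at -0.39, and the intervals of Idi1, Fdps and Fdft1 are the widest among the members.

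Of 12 genes that sense sterol and drive this pathway, 7 were lower, 2 higher and 3 did not pass, with a median of -0.27. That is 75.0% called, beside 57.5% of all genes. Over all tested genes, 29.2% were called lower and 28.3% higher. Srebf2, the main activator of cholesterol synthesis, had 292 and 289 CPM in the controls and 252 and 242 CPM in the mutants (-0.24 ± 0.04, SE; adjusted p = 2.35e-04). It is named here after its values were seen, and with library totals alone its adjusted p was 0.0643. Srebf1, which mainly drives fatty acid synthesis, fell from 270 and 255 to 204 and 187 CPM (-0.42 ± 0.05; adjusted p = 2.37e-06). Scap, their escort, fell from 161 and 164 to 115 and 109 CPM (-0.53 ± 0.05; adjusted p = 1.10e-07).

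Mylip, a ubiquitin ligase that degrades lipoprotein receptors, fell by 0.54 on the log2 scale (adjusted p = 2.80e-04). Mbtps2, the membrane protease of the final cut of the sterol regulatory proteins, rose from 23.4 and 23.2 to 41.8 and 44.4 CPM (0.88 ± 0.08, SE; adjusted p = 6.88e-08). Insig2, which retains Scap in the endoplasmic reticulum, was higher at 0.22 (adjusted p = 0.0406), a call lost when any single library was left out. Insig1, the paralog that is itself a sensitive sterol-regulated target, was at 24.8 and 25.1 CPM in controls and 26.1 and 23.9 CPM in mutants (0.01 ± 0.08, SE; adjusted p = 0.950). The oxysterol receptor Nr1h3 (0.03) and the ligase Rnf139 (-0.27, adjusted p = 0.0679) also did not pass, though Rnf139 was past the threshold in 3 of 13 alternatives (adjusted p 0.0239 to 0.367), among them the fit without the second control library and that with the replicate block.

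For uptake, 2 genes rose, 3 fell and 6 did not pass of 11, with a median of 0.09. This makes 45.5% called, beside 57.5% of all genes. With library totals alone 6 uptake genes were called higher. Scarb1, a receptor for high-density lipoprotein, fell from 320 and 316 to 218 and 204 CPM (-0.59 ± 0.05; adjusted p = 1.23e-08).

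Npc2, which moves cholesterol out of the lysosome, rose from 180 and 178 to 232 and 219 CPM (0.33 ± 0.05, SE; adjusted p = 1.30e-05). At very low levels, Cd36, a scavenger receptor, fell from 1.29 and 1.70 to 0.566 and 0.445 CPM (-1.50 ± 0.35; adjusted p = 0.00133), and Vldlr rose from 0.430 and 0.550 to 1.32 and 1.34 CPM (1.44 ± 0.35; adjusted p = 0.00188).

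In storage, transport and efflux, 5 of 9 genes rose and 4 fell, with a median of 0.42 and values from -1.06 to 2.51. All 9 were thus called (100%), beside 57.5% of all genes. Soat1, which esterifies cholesterol for storage, rose from 1.25 and 1.28 to 6.68 and 7.95 CPM (2.51 ± 0.20, SE; adjusted p = 1.05e-08). Abcg1, an exporter of cholesterol to high-density lipoprotein, rose from 4.18 and 4.08 to 16.7 and 18.0 CPM (2.06 ± 0.12; adjusted p = 3.84e-10). Apoe, an apolipoprotein, rose from 83.1 and 75.7 to 203 and 202 CPM (1.35 ± 0.05; adjusted p = 1.72e-12), and Nceh1, which hydrolyses cholesteryl esters, rose from 13.4 and 13.8 to 29.3 and 31.9 CPM (1.16 ± 0.09; adjusted p = 7.26e-09). The summed levels of megakaryocyte, endothelial, mesenchymal, macrophage and hepatoblast markers given above were also higher in the mutant. In a comparison of mutant with control alone, every gene that rises goes together with every other. The part of these markers was not tested.

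Abcg4, the other exporter of this pair, fell from 113 and 105 to 53.1 and 51.9 CPM (-1.06 ± 0.06, SE; adjusted p = 1.99e-10). The sterol carriers Stard4 (-0.46), Osbp (-0.25) and Stard3 (-0.25) were lower as well, with adjusted p of 5.87e-07, 2.58e-04 and 0.0105; the Stard3 call was lost without the second mutant library.

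Branches that share precursors or regulators with the members were also mixed. Of 11 isoprenoid branch genes 2 rose, 4 fell and 5 did not pass, with a median of -0.11. The share called was 54.5%, close to the 57.5% of all genes. Ggps1, which draws on farnesyl diphosphate to make geranylgeranyl diphosphate, rose from 2.97 and 2.89 to 5.44 and 6.49 CPM (1.00 ± 0.17, SE; adjusted p = 9.06e-05), although 15.3% of its words are shared with other genes. The prenyltransferase subunit Pggt1b was higher (0.33) and Fntb lower (-0.31), as were the dolichol synthesis gene Dhdds (-0.30), the ubiquinone gene Pdss2 (-0.23) and Rabggtb (-0.11). The Pdss2 call was lost without the second mutant library, and that of Rabggtb without the second control or the first mutant library.

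Fatty acid synthesis is the other arm under sterol regulatory element binding proteins. It had 4 genes higher, 5 lower and 3 not passed of 12, with a median of -0.01. The share called was 75.0%, beside 57.5% of all genes. Fasn, fatty acid synthase, fell from 601 and 597 to 425 and 405 CPM (-0.53 ± 0.04, SE; adjusted p = 1.59e-08). Gpam (-0.41), Acly (-0.24) and Acss2 (-0.24) were lower too. Scd1, which introduces a double bond into fatty acids, rose from 130 and 142 to 309 and 327 CPM (1.22 ± 0.05; adjusted p = 4.28e-12), and Elovl5 (0.72), Scd2 (0.26) and Elovl6 (0.19) were higher, the last not when any single library was left out. Acaca (0.05), Fads1 (-0.07) and Me1 (0.42) did not pass.

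**Figure D5:**
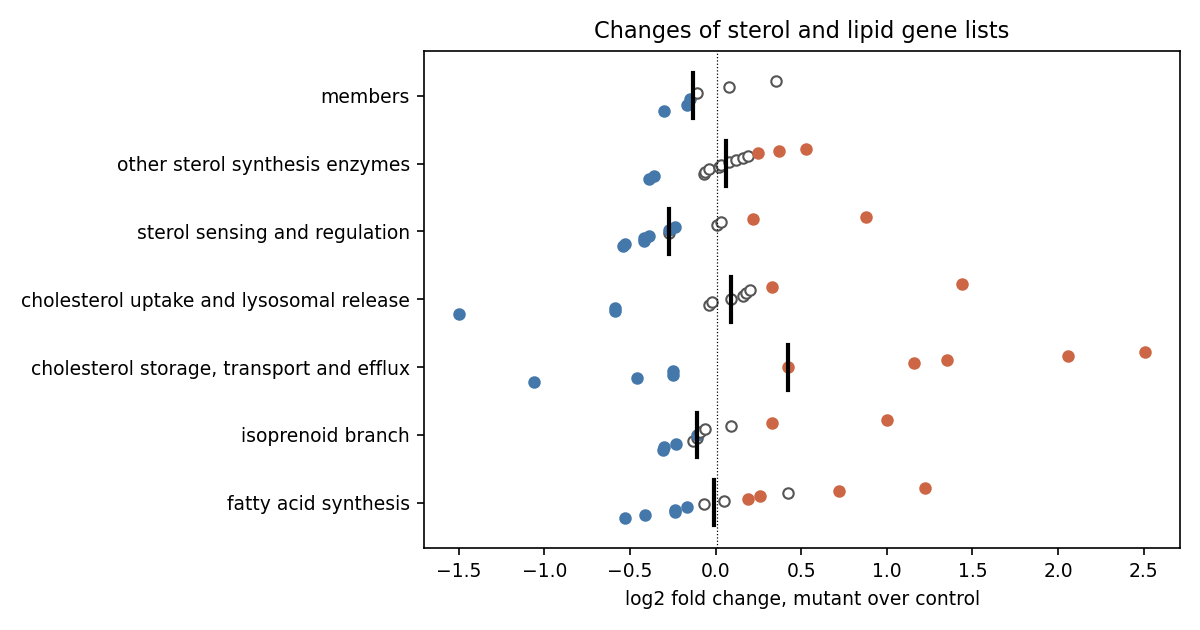
Log2 fold change of mutant over control for each gene of 7 lists, with orange for called higher, blue for called lower and open points for genes that did not pass; black bars are list medians and the dotted line is the median of all tested genes (0.01). The members span -0.30 to 0.35, while storage, transport and efflux genes span -1.06 to 2.51.

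The 5 genes outside all lists whose pattern over the 4 libraries was closest to the members' mean pattern were Ahsa2, Sugp2, Traf3, R3hdm1 and Klraq1, with a root mean square difference of 0.00781 to 0.00876 in log2 CPM. Their log2 fold changes ran from -0.07 to -0.04 and none passed the test. Such closeness was common: of 7498 candidate genes whose mean CPM was 10 or more, 802 lay no farther from the mean pattern than the nearest member, Idi1, and 5116 no farther than the farthest, Fdps.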

How the data were processed

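Read counts per gene, as whole numbers, were deposited by the authors, who also deposited their own comparison. Per the file headers it holds a log2 fold change, a p-value and a false discovery rate for each gene. FastQC, Bowtie, edgeR and the mm9 genome are named in the submitters' processing notes, with no versions; treatment of reads that map to several places, and strand, are not stated there. Columns headed WT, numbered 1 and 2, were taken as the control libraries by number. The 12 rows with NA in every library were left out.

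Counts were refitted in R 4.3.3 with edgeR 4.0.16: filterByExpr (13140 genes), TMM (factors 0.952 to 1.05), glmQLFit with robust and glmQLFTest, two-sided, on 2 against 2 libraries, with Benjamini-Hochberg adjustment over all tested genes (threshold 0.05). The biological coefficient of variation was 4.81%. The fit was tested on simulated data. Alternatives were RLE, upper quartile and library-total scaling, 2 other filters, DESeq2 1.42.0, limma-voom (limma 3.58.1), edgeR's exact test, each library left out in turn, and a block for the replicate number.

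Members and lists were chosen with earlier results of these data known. Named genes were the members, Rcor1, in each list the called genes with non-overlapping groups that rose most or fell most, at most 4 in each direction, uncalled genes where a list had 4 or fewer, and the 5 genes nearest to the members' mean pattern among unlisted genes with at least 10 CPM; Srebf2 was added after its values were seen. Some genes that this rule takes in are counted in their lists but not reported here by name. Shared words came from GENCODE M21 transcripts (GRCm38) and promoters from RefSeq (GRCm38.p6); the words of 36 bases are a length chosen here.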

Additional observations from a re-analysis of the deposited data

How the results depend on the processing

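Over 13 alternatives, Lss was past the threshold in 12 (adjusted p 1.39e-06 to 0.0548), Sqle in 8 (9.25e-04 to 0.783) and Dhcr7 in 4 (0.00845 to 0.675), all lower throughout, and Idi1, Fdps and Fdft1 in 0. With upper quartile scaling 1 member was lower (median -0.05; Sqle -0.08, Dhcr7 -0.10), and with library totals alone 0 were (median 0.01; Lss -0.16, Sqle -0.02, Dhcr7 -0.04, Idi1 0.03). DESeq2 called 1 member lower (Sqle -0.16, adjusted p = 0.0611; Dhcr7 -0.18, adjusted p = 0.122). Dhcr7 also lost its call with a filter of CPM above 1 in 2 libraries (-0.15) and in edgeR's exact test (-0.17).

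Leaving out each library in turn left 1 to 2 members lower, with the members' median from -0.20 to -0.07, Sqle from -0.20 to -0.12, Idi1 from -0.22 to -0.02, Dhcr7 from -0.22 to -0.13, Fdft1 from -0.10 to 0.23, Insig1 from -0.06 to 0.07, Nr1h3 from -0.09 to 0.21 and Acaca from -0.07 to 0.15. The group left with 1 library is assumed to vary like the other.

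With upper quartile scaling and with library totals, these uncalled genes turned positive: Fads1 (0.00 and 0.06), Ahsa2 (0.02 and 0.08), Sugp2 (0.03 and 0.09), Traf3 (0.03 and 0.09), R3hdm1 (0.04 and 0.10) and Klraq1 (0.01 and 0.07). Rabggtb was 0.02 with library totals. With no filter beyond 1 count, Insig1 was -0.03 and Nr1h3 -0.00. Whether Insig2 (6 of 13 alternatives past the threshold), Rabggtb (6), Elovl6 (6), Rnf139 (3), Pdss2 (9), Stard3 (10), and Vldlr, Acss2 and Srebf2 (12 each) were called also depended on settings. Other enzymes called higher numbered 5 with upper quartile scaling and 8 with library totals, beside 3; uptake genes called higher numbered 5 and 6 under these scalings and 1 in DESeq2, beside 2; fatty acid genes called lower numbered 3 with library totals, beside 5; isoprenoid genes called lower numbered 2 under both scalings and DESeq2, beside 4.

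With the replicate number as a block, 3 members were lower (median -0.13; Sqle adjusted p = 9.25e-04). Deviations of same-numbered libraries correlated over 5000 genes (r = 0.69), but with 2 pairs the numbers were not taken to pair the samples. Counts limit Idi1, Fdft1 and Fdps, whose intervals include both falls and rises; a p that misses the threshold does not show that they were unchanged.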
